A study of Rattus norvegicus with 8 samples.

Results

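The 10 genes described here are secondary response, plasticity and neurotrophic genes, many of them transcribed in neurons after activity. They were picked from the 22601 genes of each library by NCBI GeneID. The 10 are *Bdnf* (GeneID 24225), *Ntrk2* (25054), *Nptx2* (288475), *Homer1* (29546), *Inhba* (29200), *Vgf* (29461), *Scg2* (24765), *Pcsk1* (25204), *Gadd45b* (299626) and *Gadd45g* (291005). Their RNA was measured by RNA sequencing in the hippocampus of 8 wild type Wistar rats, 3 in the Con. group, 3 in the PTZ group and 2 in the Q808 group, with 1 library per rat. Pentylenetetrazole (PTZ) causes convulsions by blocking the GABA-A receptor, and low doses given again and again kindle a rat, so that later doses cause stronger seizures. PTZ and Q808 rats were injected with PTZ at 35 mg/kg every 48 h for 28 days, 14 injections in all, with 60 mg/kg on the last day, while Con. rats were given saline. Q808, a compound under test as an anticonvulsant, was then given to the Q808 rats by gavage at 30 mg/kg daily for 28 days, and the Con. and PTZ rats were given its solvent. One day after that, PTZ and Q808 rats received a further sub-convulsive dose of PTZ, and tissue was taken after the last scoring of seizures. The time between that dose and dissection, and the age of the rats, are not given in the sources used here. The kindled rats were therefore recently injected as well as kindled, and the 2 cannot be told apart in these groups.

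Neurons answer strong activity in waves. Immediate early transcription factors come first, and genes for secreted factors, vesicle cargo, synaptic proteins and growth arrest proteins follow, so that the second wave can outlast the seizure that started it. In the hippocampus this second wave includes BDNF, whose receptor TrkB is encoded by *Ntrk2*, and it has long been studied in seizure models.

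Many activity-induced genes carry a cAMP response element, the binding sequence of the factor CREB, close to the transcription start, so the stretch before the start is shown for members that hold one. RefSeq promoter windows of 300 bases from the GRCr8 assembly were found for 8 of the 10 genes, all except *Ntrk2* and *Pcsk1*. The full element TGACGTCA was found in the windows of *Vgf* and *Scg2*, and in 1.83% of all 33469 windows. The shorter TGACG, searched on both strands and contained in the full element, was found in 5 members (*Bdnf*, *Gadd45b*, *Nptx2*, *Scg2* and *Vgf*), and in 21.2% of all windows. A member was counted when any of its windows held a match, and *Bdnf* has 6 starts. The shares are per window, so counts of members and shares of windows are unlike units and cannot be compared directly. The 150 bases before the start are printed 5′ to 3′ on the strand of the gene, with the match in capitals. They belong to *Vgf* (chr12:25277021-25277170, minus strand), *Scg2* (chr9:88256867-88257016, minus strand), *Nptx2* (chr12:15162046-15162195, minus strand) and 1 of the 6 starts of *Bdnf* (chr3:116637708-116637857, plus strand).
Vgf: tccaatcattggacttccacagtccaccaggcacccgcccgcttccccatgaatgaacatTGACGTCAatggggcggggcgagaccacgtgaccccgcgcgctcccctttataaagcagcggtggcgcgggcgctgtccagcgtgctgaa
Scg2: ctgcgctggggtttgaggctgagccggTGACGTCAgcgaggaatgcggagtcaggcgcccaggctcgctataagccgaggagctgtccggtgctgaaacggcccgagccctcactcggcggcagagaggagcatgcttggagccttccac
Nptx2: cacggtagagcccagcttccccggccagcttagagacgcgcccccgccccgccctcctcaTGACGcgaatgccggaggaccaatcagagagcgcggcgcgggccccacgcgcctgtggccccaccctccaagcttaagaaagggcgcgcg
Bdnf: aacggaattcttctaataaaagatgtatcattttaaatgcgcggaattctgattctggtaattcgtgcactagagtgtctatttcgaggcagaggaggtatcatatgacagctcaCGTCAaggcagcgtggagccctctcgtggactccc
The first base of the match lay 90 bases before the start in *Vgf*, 123 in *Scg2*, 90 in *Nptx2* and 35 in *Bdnf*, where it is read as CGTCA. In *Gadd45b* the match crossed the start and is not printed. Such a match is a description of the letters, and binding was not measured.

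Values are FPKM, which divides the fragments of a gene by its transcript length and by the mapped fragments of the library, as the authors deposited them. The depth behind them is not in these values, so no counting error can be given. The 8 libraries fell into sets of 5 and 3 by 5 genes of striatal neurons (*Drd1*, *Drd2*, *Adora2a*, *Rgs9* and *Pde10a*). Their summed FPKM lay between 231 and 604 in Con.-3, PTZ-3 and Q808-1, called the high set, and between 14.3 and 26.7 in Con.-1, Con.-2, PTZ-1, PTZ-2 and Q808-2, called the low set. In the high set, 3 of 6 markers of dentate granule cells and 4 of 6 markers of hippocampal pyramidal cells were below all 5 low-set libraries, with sums of 13.6 to 20.1 against 72.5 to 116 FPKM and of 48.8 to 87.2 against 128 to 190 FPKM for the whole lists, and 8 of 8 oligodendrocyte genes were above them. Fewer cells of a type and less RNA per cell cannot be told apart in bulk tissue. Each result below is therefore given over all libraries and within the low set, where the comparison of PTZ with Con. has 2 libraries against 2, and that of Q808 has 1 library.

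All 10 genes had their highest values in PTZ-1 and PTZ-2, the PTZ libraries of the low set. Both libraries exceeded the 6 others for 10 of 10 members, which held for 5.02% of the 15593 genes tested. The lower of the pair was at least 2 times the highest of the 6 others for 4 members, *Nptx2* (10.1 times), *Bdnf* (5.54 times), *Gadd45b* (5.0 times) and *Inhba* (3.83 times), against 0.359% of genes, 56 in number. The other 6 members exceeded the highest of the rest by 1.03 times (*Scg2*) to 1.55 times (*Gadd45g*). PTZ-2 was above PTZ-1 for 10 of 10 members, against 40.5% of all genes. PTZ-3 stood apart from the pair, and it was above Con.-3, its counterpart in the high set, for 6 of 10 members, against 59.7% of all genes.

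**Figure D1:**
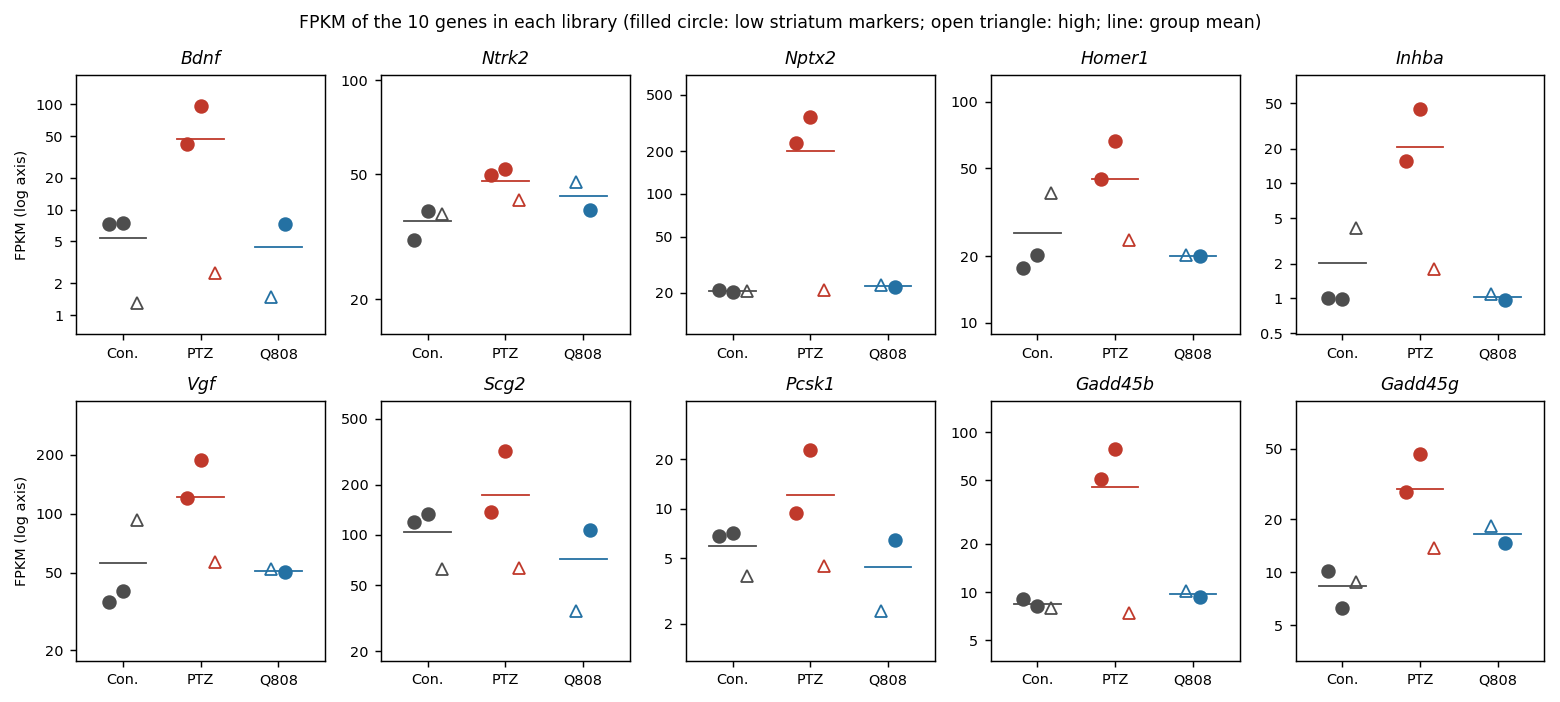
FPKM on a log axis for each of the 10 genes, 1 point per library, in 3 Con., 3 PTZ and 2 Q808 libraries; filled circles are the low set, open triangles the high set, and lines group means. The 2 filled PTZ points lie above every other point in all 10 panels, and the PTZ triangle lies near the Con. and Q808 points in *Nptx2* (21.1 FPKM) and *Gadd45b* (7.45 FPKM).

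A gene was called when limma, fitted over all 15593 genes on log2(FPKM + 0.1), gave p under 0.05 before adjustment and the fold change exceeded 1.5, and Benjamini-Hochberg adjusted p-values over all genes are given beside the calls. Over all 6 libraries, PTZ against Con. called 4 of 10 members higher (*Nptx2*, *Inhba*, *Gadd45b* and *Gadd45g*) and none lower, where 2.53% of all genes were called and 1.69% were called higher. Their adjusted p-values were 0.999 each. Within the low set, 8 of 10 were called higher, all except *Ntrk2* and *Scg2*, where 9.82% of all genes were called and 4.09% were called higher. In that set 6 members had an adjusted p-value under 0.05 in limma, as did 148 genes in all, or 0.949%. The median log2 fold change of the 10 genes was 1.38 over all libraries and 2.08 in the low set, where the median of all genes was -0.04 and -0.11.

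**Figure D2:**
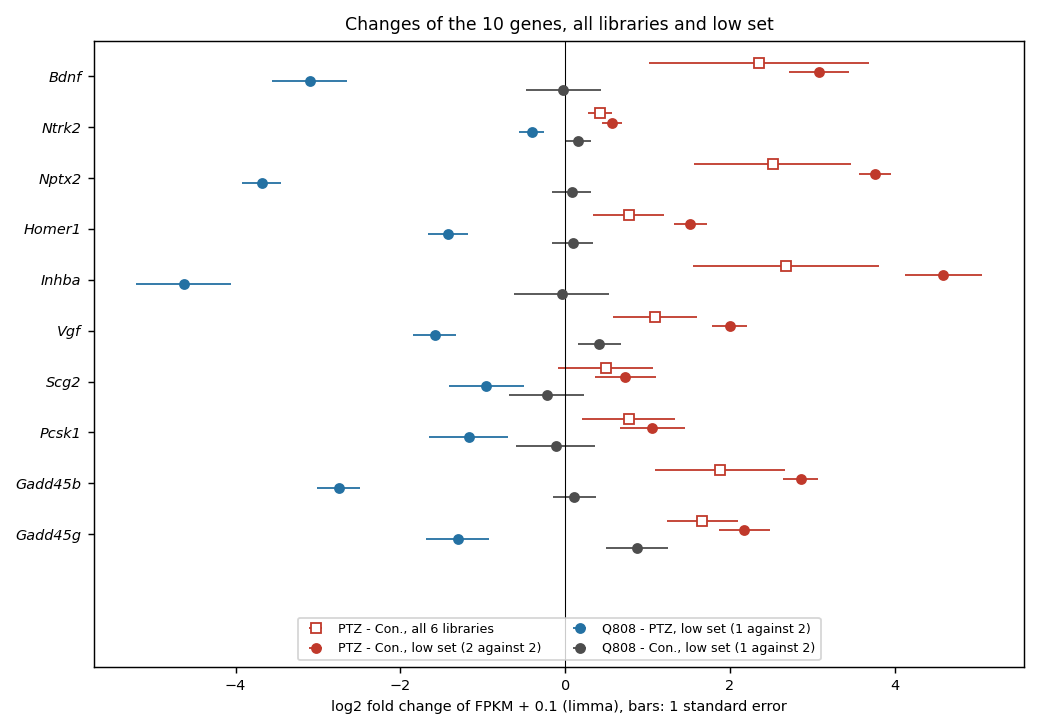
Log2 fold change of FPKM + 0.1 from limma for each gene, with bars of 1 standard error, with PTZ minus Con. over all 6 libraries as open squares. Filled circles are low-set changes, red for PTZ minus Con., blue for Q808 minus PTZ and grey for Q808 minus Con. Low-set PTZ changes run from 0.57 (*Ntrk2*) to 4.59 (*Inhba*), and Q808 against Con. runs from -0.22 (*Scg2*) to 0.87 (*Gadd45g*).

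The neurotrophin and its receptor differed widely in the size of their change. *Bdnf* encodes brain-derived neurotrophic factor, which is secreted at synapses and acts on survival and plasticity of neurons. Its FPKM was 7.25, 7.53 and 1.31 in Con.-1 to Con.-3, 41.7, 95.8 and 2.52 in PTZ-1 to PTZ-3, and 1.5 and 7.28 in Q808-1 and Q808-2. The groups overlapped, because PTZ-3 lay below Con.-1 and Con.-2, and the 3 lowest values were those of the high set. The means were 5.37 ± 3.51 FPKM in Con. (SD, n = 3), 46.7 ± 46.9 in PTZ (SD, n = 3) and 4.39 ± 4.09 in Q808 (SD, n = 2), and *Bdnf* was not called over all libraries (log2 fold change 2.35 ± 1.33 SE, limma adjusted p = 0.999). With the replicate number of the titles, which a Con. and a PTZ library share, as a block it was called, with the same change and an adjusted p of 0.710 in limma. Within the low set *Bdnf* rose 9.30-fold, from 7.39 ± 0.201 to 68.8 ± 38.3 FPKM (SD, n = 2 each), a log2 fold change of 3.08 ± 0.37 (SE, limma adjusted p = 0.0389).

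*Ntrk2*, the TrkB receptor gene, was measured at 30.8, 38.2 and 37.3 FPKM in Con., 49.6, 52.1 and 41.4 in PTZ, and 47.3 and 38.4 in Q808. All 3 PTZ libraries were above all 3 Con. libraries, which among the 10 genes held for *Ntrk2* and *Gadd45g* and held for 4.11% of all genes. Its change stayed below the fold limit, with a log2 fold change of 0.43 ± 0.15 (SE) over all libraries (limma adjusted p = 0.999) and 0.57 ± 0.13 in the low set (limma adjusted p = 0.125). The FPKM is a value per gene, so full-length and truncated TrkB transcripts are not separated.

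The synaptic genes were *Nptx2*, encoding neuronal pentraxin 2 (NARP), a secreted protein that gathers AMPA receptors, and *Homer1*, encoding a scaffold that binds group I metabotropic glutamate receptors and has a short activity-induced form. *Nptx2* was at 21.2, 20.4 and 20.6 FPKM in Con., 231, 348 and 21.1 in PTZ, and 22.9 and 22.0 in Q808. The 6 libraries other than PTZ-1 and PTZ-2 lay between 20.4 and 22.9 FPKM whatever their set, so that PTZ-3 was 1.02 times Con.-3. *Nptx2* moved from the 4th highest of the 10 genes in Con.-1 and Con.-2 to the highest in PTZ-1 and PTZ-2, ahead of *Scg2*, on the FPKM scale, which is per length. Its low-set mean rose 13.9-fold, from 20.8 ± 0.540 to 289 ± 83.2 FPKM (SD, n = 2 each), and its adjusted p of 0.00658 was the lowest of the 10 genes in limma (log2 fold change 3.76 ± 0.19 SE). Over all libraries the log2 fold change was 2.52 ± 0.95 (SE, limma adjusted p = 0.999), and the call was lost without any 1 of the 3 Con. libraries, PTZ-1 or PTZ-2, with changes of 1.75 without PTZ-2 to 2.54 without Con.-1.

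*Homer1* was at 17.7, 20.2 and 38.8 FPKM in Con., 44.5, 66.3 and 23.6 in PTZ, and 20.2 and 20.2 in Q808. Con.-3 was below PTZ-1 and PTZ-2 but above PTZ-3, so the groups overlapped. *Homer1* rose 2.92-fold in the low set (log2 fold change 1.52 ± 0.20 SE, limma adjusted p = 0.0447), and over all libraries a log2 fold change of 0.77 ± 0.43 (SE) was not called (limma adjusted p = 0.999). Without Con.-3 that change was 1.12 and without PTZ-3 it was 1.17, and both were called. The short and long Homer1 forms are not separated in a value per gene.

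*Inhba* encodes the beta A subunit of activin A, a secreted factor of the TGF-beta family. Its FPKM was 1.02, 0.990 and 4.12 in Con., 15.8, 44.2 and 1.81 in PTZ, and 1.09 and 0.973 in Q808. It was the lowest of the 10 genes in Con.-1, Con.-2, PTZ-3 and both Q808 libraries, and Con.-3 was above PTZ-3. The low-set mean of *Inhba* rose 29.9-fold, from 1.00 ± 0.0185 to 30 ± 20.1 FPKM (SD, n = 2 each). Its log2 fold change there was the third highest of the 15593 genes, at 4.59 ± 0.47 (SE, limma adjusted p = 0.0280), or 24.1-fold. Over all libraries the log2 fold change was 2.68 ± 1.13 (SE, limma adjusted p = 0.999), and it was called in 6 of 16 alternatives. With the replicate number as a block it was not called (limma adjusted p = 0.792), nor without Con.-1 (2.36), Con.-2 (2.35), PTZ-1 (2.42) or PTZ-2 (1.68).

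The vesicle genes were *Vgf* and *Scg2*, which encode VGF and secretogranin II, precursors of secreted peptides in dense-core vesicles, and *Pcsk1*, encoding prohormone convertase 1/3, which cuts such precursors. *Vgf* was at 35.5, 40.1 and 93.1 FPKM in Con., 121, 188 and 56.6 in PTZ, and 52.0 and 50.2 in Q808. Both Q808 libraries lay between the Con. low-set values and PTZ-3. *Vgf* rose 4.09-fold in the low set (log2 fold change 2.00 ± 0.21 SE, limma adjusted p = 0.0287) and was not called over all libraries, where the change was 1.09 ± 0.51 (limma adjusted p = 0.999). It was called without Con.-3 (1.53) or without PTZ-3 (1.56).

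*Scg2* had the highest FPKM of the 10 genes in Con.-1 and Con.-2, at 119 and 133, with 62.6 in Con.-3. It was at 137, 319 and 63.4 FPKM in PTZ and at 35.2 and 108 in Q808. PTZ-1 exceeded Con.-2 by little, and PTZ-2 alone was well above the Con. range. *Scg2* was not called in the low set (log2 fold change 0.73 ± 0.37 SE, limma adjusted p = 0.331) or over all libraries (0.49 ± 0.58, limma adjusted p = 0.999), and the latter became -0.10 without PTZ-2.

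*Pcsk1* had a like order of libraries, with 6.84, 7.10 and 3.92 FPKM in Con., 9.41, 22.6 and 4.5 in PTZ, and 2.38 and 6.43 in Q808. It rose 2.30-fold in the low set, but with an adjusted p of 0.231 in limma (log2 fold change 1.06 ± 0.39 SE), and without PTZ-2 the change was 0.43 and not called. It was also not called without Con.-1 (1.03) or Con.-2 (1.08). Over all libraries the change of 0.77 ± 0.56 (SE) was not called. It was called with the replicate block (limma adjusted p = 0.785) and without PTZ-3 (1.33).

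*Gadd45b* and *Gadd45g* encode small stress-response proteins that bind MAP3K4 and take part in growth arrest, and GADD45B has been tied to activity-dependent DNA demethylation. *Gadd45b* was at 9.02, 8.24 and 7.90 FPKM in Con., 50.9, 78.3 and 7.45 in PTZ, and 10.2 and 9.31 in Q808. Apart from PTZ-1 and PTZ-2 its values stayed between 7.45 and 10.2 in both sets, as with *Nptx2*. It rose 7.48-fold in the low set (log2 fold change 2.86 ± 0.21 SE, limma adjusted p = 0.0135), and over all libraries the change was 1.88 ± 0.79 (limma adjusted p = 0.999). That call was lost when any library but PTZ-3 was left out, with 1.21 without PTZ-2 as the lowest change.

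*Gadd45g* was at 10.1, 6.31 and 8.76 FPKM in Con., 28.4, 46.8 and 13.7 in PTZ, and 18.3 and 14.7 in Q808. PTZ-3 and both Q808 libraries were above all 3 Con. libraries, and *Gadd45g* was called higher over all libraries in both the PTZ and the Q808 group than in Con. The log2 fold change of PTZ against Con. was 1.66 ± 0.43 (SE, limma adjusted p = 0.999), it was called in 16 of 16 alternatives, and in the low set it was 2.17 ± 0.31 (limma adjusted p = 0.0534).

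**Figure D3:**
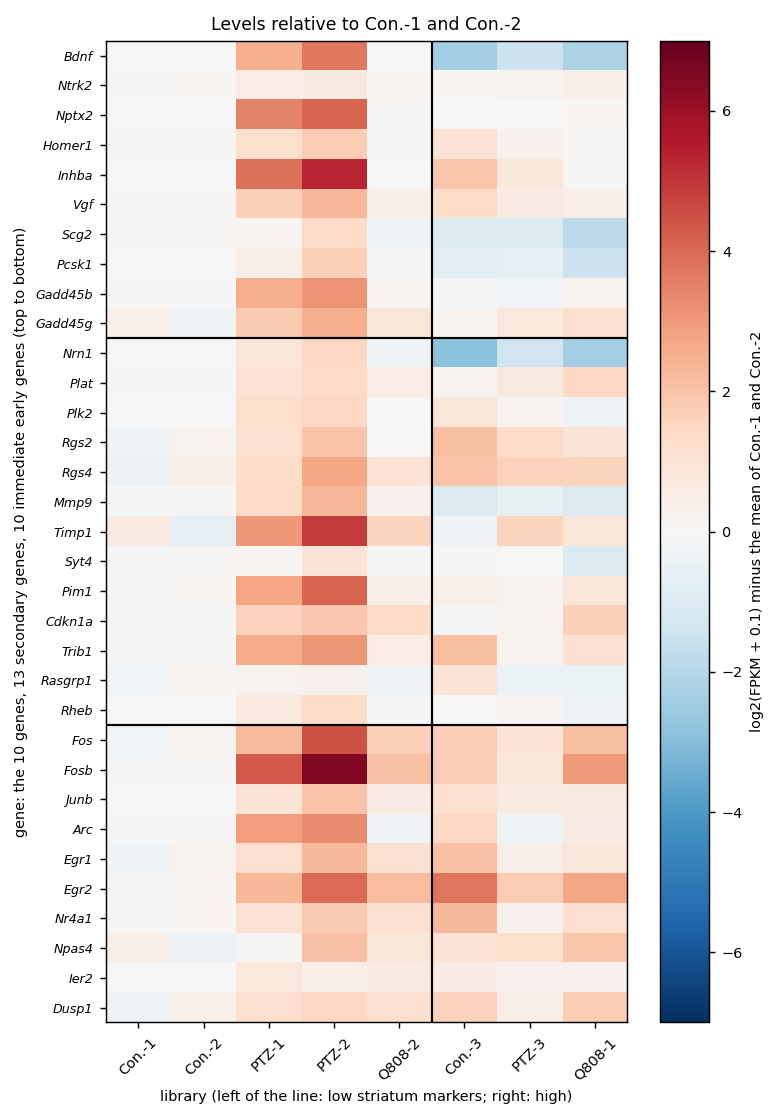
Log2(FPKM + 0.1) minus the mean of Con.-1 and Con.-2 (colour) for the 10 genes, 13 other secondary response genes and 10 immediate early genes (rows) in the 8 libraries (columns, low set left of the line). PTZ-1 and PTZ-2 are positive in the 10 genes, from 0.12 (*Scg2* in PTZ-1) to 5.33 (*Inhba* in PTZ-2), Q808-2 is pale in them, between -0.22 and 0.87, and *Bdnf* is blue in the 3 high-set libraries (-2.41, -1.52 and -2.23).

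Q808 rats had been kindled and injected like PTZ rats, and they were given the compound where PTZ rats were given its solvent. The paper reports a lower seizure score and a longer seizure latency in the Q808 group at the last scoring, before tissue was taken. Scores of the sequenced rats are not given. Q808 against PTZ therefore differs in the compound and in recent seizures, which cannot be told apart here. Both Q808 libraries were below all 3 PTZ libraries for 3 of 10 members, against 5.02% of all genes. Over all 5 libraries 2 of 10 members were called lower, *Homer1* (log2 fold change -1.03 ± 0.41 SE) and *Inhba* (-3.29 ± 1.21 SE), where 1.92% of all genes were called and 0.564% were called lower. Both had a limma adjusted p of 0.952, and both calls were lost when PTZ-1, PTZ-2, Q808-1 or Q808-2 was left out. The change of *Inhba* was the lowest of the 15593 genes, and all 10 members had negative changes, with a median of -1.25 where all genes had 0.10.

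Within the low set, Q808-2 was compared with PTZ-1 and PTZ-2, and the lone Q808 library was assumed to vary like the others. There 7 of 10 members fell (*Bdnf*, *Nptx2*, *Homer1*, *Inhba*, *Vgf*, *Gadd45b* and *Gadd45g*), where 10.4% of all genes were called and 2.31% were called lower. The mean of PTZ-1 and PTZ-2 was 30.8 times Q808-2 for *Inhba*, 13.2 times for *Nptx2*, 9.45 times for *Bdnf* and 6.94 times for *Gadd45b*. In limma, 3 members passed an adjusted p-value of 0.05, which 0.603% of all genes did. They were *Nptx2* (-3.68 ± 0.24 SE, adjusted p = 0.0104), *Gadd45b* (-2.75 ± 0.26, adjusted p = 0.0228) and *Inhba* (-4.63 ± 0.58, adjusted p = 0.0467). *Ntrk2* (-0.41 ± 0.15 SE), *Scg2* (-0.96 ± 0.46) and *Pcsk1* (-1.17 ± 0.48) were not called. The call of *Gadd45g* (-1.3 ± 0.38 SE) was lost without PTZ-2, where its change was -0.94. This contrast has the same PTZ libraries as PTZ against Con., so the 2 directions are not independent.

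Both Q808 libraries were above all 3 Con. libraries for 4 of 10 members, against 13.3% of all genes. Q808 against Con. called 1 of 10 members over all libraries, where 3.46% of all genes were called. *Gadd45g* was higher in both Q808 libraries than in any Con. library, by 0.98 ± 0.25 on the log2 scale (SE, limma adjusted p = 0.901), and the call was lost without Q808-1, at 0.83. In the low set 0 of 10 members were called by limma and 0 had an unadjusted p under 0.05, where 4.53% of all genes were called and 5.90% had such a p. Q808-2 lay inside the range of Con.-1 and Con.-2 for 2 members, above it for 5 and below it for 3. The changes were -0.02 ± 0.45 (SE) for *Bdnf*, 0.08 ± 0.24 for *Nptx2*, -0.04 ± 0.58 for *Inhba*, 0.11 ± 0.26 for *Gadd45b* and 0.41 ± 0.26 for *Vgf*. With 1 library these standard errors leave room for changes in either direction, so the values do not show that Q808-2 and Con. were alike.

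The high set was also compared with the low set. With the group in the fit, 3 of 10 members were called lower in the 3 high-set libraries, where 19.1% of all genes were called and 7.41% were called lower. They were *Bdnf* (log2 difference -3.15 ± 0.46 SE, limma adjusted p = 0.00398), *Scg2* (-1.43 ± 0.27, adjusted p = 0.0104) and *Pcsk1* (-1.29 ± 0.29, adjusted p = 0.0224). The other 7 ranged from -1.35 ± 0.65 (SE, *Nptx2*) and -1.13 ± 0.54 (*Gadd45b*) to 0.02 ± 0.13 (*Ntrk2*) and were not called. The fit gives a single set difference for all groups. *Nptx2* was at 20.6 FPKM in Con.-3 against 21.2 and 20.4 in Con.-1 and Con.-2. It was at 22.9 in Q808-1 against 22.0 in Q808-2, but at 21.1 in PTZ-3 against 231 and 348 in PTZ-1 and PTZ-2. *Gadd45b* had a like pattern. *Bdnf* was lower in the high-set library of each group, and most so in PTZ. Between the high-set libraries themselves, which are 1 per group and have no test, PTZ-3 was 1.92 times Con.-3 for *Bdnf*, 1.56 times for *Gadd45g*, 0.943 times for *Gadd45b*, 0.609 times for *Homer1* and *Vgf*, and 0.439 times for *Inhba*. The difference between the sets in the change from Con. to PTZ was called for 7 of 10 members, each with a larger change in the low set, where 19.2% of all genes were called and 5.77% in that direction. The dissected tissue and the rat cannot be told apart in PTZ-3.

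Other cell types were checked in the low set by marker lists. Choroid plexus genes were lower in both PTZ libraries than in both Con. libraries for 5 of 6 genes, with *Otx2* at 0 in all 8 libraries, and their summed FPKM was 276 to 407 in PTZ against 2504 to 2529 in Con. and 6420 in Q808-2. Meningeal fibroblast genes were lower in PTZ for 4 of 5 genes, with sums of 23.9 to 25.7 against 47.3 to 48.5 in Con. and 136 in Q808-2. The part of these tissues in the results was not tested. In the 3 high-set libraries the choroid plexus sums were 91.6 to 488 FPKM, against 276 to 407 in PTZ-1 and PTZ-2. The high-set libraries also differed from the low set in striatal, granule cell and pyramidal cell markers. The part of choroid plexus therefore cannot be told apart there, and it was not tested. *Nptx2* was at 20.6 to 22.9 FPKM and *Gadd45b* at 7.45 to 10.2 in these libraries. Con.-3 had the lowest choroid plexus sum. It was above Con.-1 and Con.-2 for 3 members, *Inhba* (4.12 FPKM), *Homer1* (38.8) and *Vgf* (93.1), against 42.1% of all genes. It was below both for 4 members, *Bdnf* (1.31 FPKM), *Scg2* (62.6), *Pcsk1* (3.92) and *Gadd45b* (7.90), against 39.0% of all genes. In the low set, 3 of 6 granule cell markers were lower and 1 higher in both PTZ libraries than in both Con. libraries, with sums of 99.9 and 116 FPKM in PTZ against 110 in each Con. library. Pyramidal cell markers were lower for 2 of 6 genes and higher for 0, with sums of 128 and 170 FPKM in PTZ against 178 and 190 in Con., and astrocyte genes were higher for 3 of 5 genes, with sums of 854 and 942 against 742 and 789. The part of these cell types in the results was not tested either.

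Genes of the same pathways were read from 7 lists of 77 genes in all, and each of the 77 was tested. In PTZ against Con. in the low set, 9.82% of all genes were called and 4.09% were called higher. Among 13 other secondary response genes, 11 were called higher and 0 lower there, with a median log2 fold change of 1.54. Those with the smallest p-values were *Plk2*, a kinase that acts at synapses (1.35 ± 0.10 SE, limma adjusted p = 0.0128), *Trib1*, a pseudokinase (2.85 ± 0.22, adjusted p = 0.0142), *Cdkn1a*, encoding the cell cycle inhibitor p21 (1.77 ± 0.14, adjusted p = 0.0142), and *Pim1*, a kinase (3.43 ± 0.42, adjusted p = 0.0390). Over all libraries 5 of the 13 were called higher and 0 lower, where 1.69% of all genes were called higher. *Plat* (0.96), *Timp1* (3.27), *Cdkn1a* (1.3) and *Rheb* (0.74) had the smallest p-values of the 13. *Cdkn1a* was also called higher in Q808-2 than in Con.-1 and Con.-2, with 20.5 FPKM against 8.15 and 7.31 (1.40 ± 0.17 SE, limma adjusted p = 0.272), the 1 gene of the 13 called in that comparison.

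The immediate early genes, transcription factors and synaptic genes of the first wave, were called higher in PTZ in 9 of 10 cases in the low set. Of all genes, 4.09% were called higher there. All 10 immediate early genes had positive changes, with a median of 1.6. *Arc*, whose protein acts in the trafficking of AMPA receptors, was at 30.4 and 34.3 FPKM in Con.-1 and Con.-2, 246 and 326 in PTZ-1 and PTZ-2 and 26.8 in Q808-2. *Egr2* (3.16 ± 0.53 SE) and *Dusp1* (1.31 ± 0.24) rose as well, with limma adjusted p-values of 0.0760 and 0.0880. *Fosb*, a partner of Jun proteins in AP-1, was at 2.72 and 3.15, at 58.3 and 265, and at 12.6 FPKM in the same libraries, and it was the 1 immediate early gene called over all 6 libraries (3.26 ± 1.32 SE, limma adjusted p = 0.999). In Q808 against Con. in the low set 5 of the 10 immediate early genes were called higher, with *Dusp1* (1.18 ± 0.29 SE), *Ier2* (0.63 ± 0.18), *Nr4a1* (1.17 ± 0.34) and *Egr2* (2.14 ± 0.65) of the smallest p-values, none with a limma adjusted p below 0.559. The median over that list was 1.13, against 0.08 for the 10 secondary genes and 0.05 for all genes, and the difference between the 2 lists was not tested.

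**Figure D4:**
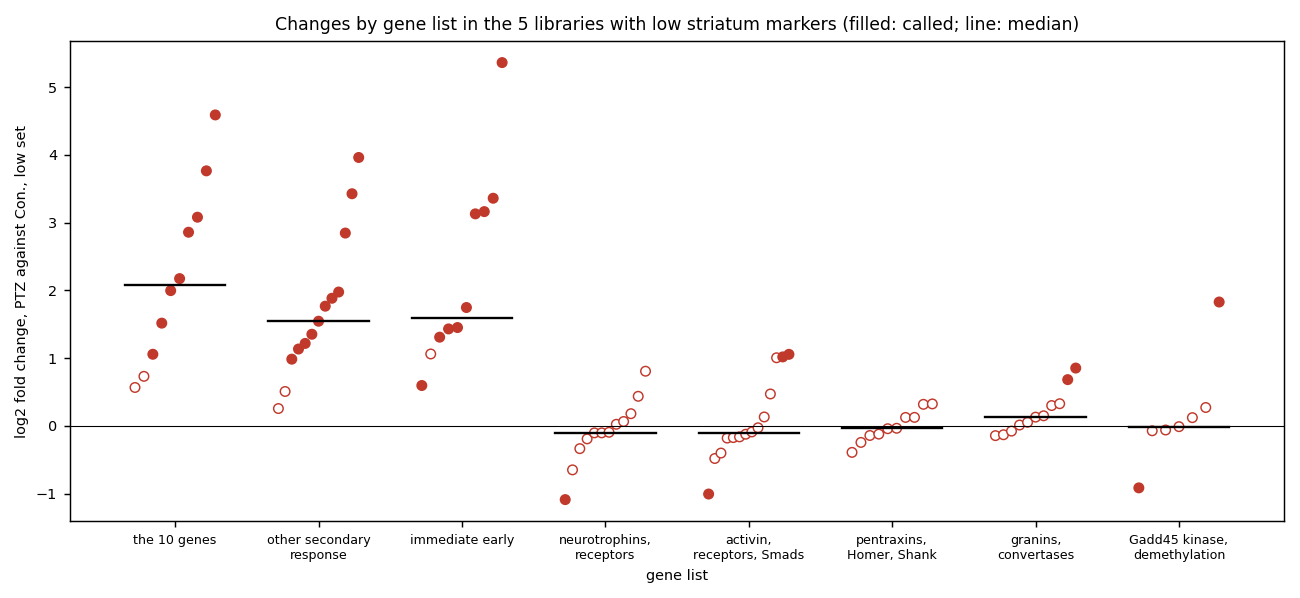
Log2 fold change of PTZ against Con. in the low set (y axis) for each gene of 8 lists (x axis), with filled points for called genes and lines for medians. The 10 genes, the other secondary genes and the immediate early genes have medians of 2.08, 1.54 and 1.6, and the other 5 lists have medians between -0.11 and 0.13.

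Among the direct partners of the 10 genes, calls went in both directions, and in PTZ against Con. in the low set the share called was 8.33% of the neurotrophin list, 21.4% of the activin list, 0 of the pentraxin list, 18.2% of the granin list and 28.6% of the Gadd45 list, against 9.82% of all genes. Of 12 neurotrophins, receptors and partners, *Ntf3*, encoding neurotrophin-3, fell (-1.09 ± 0.22 SE, limma adjusted p = 0.105), and 11 were not called. Of 14 activin receptors, binding proteins and Smads, the inhibitory *Smad7* (1.06 ± 0.13, limma adjusted p = 0.0393) and the activin-binding *Fst* (1.02 ± 0.26, adjusted p = 0.155) rose, while the receptor gene *Acvr2a* fell (-1.01 ± 0.12, adjusted p = 0.0358). None of the 10 pentraxin, Homer and Shank genes was called by limma, and their changes ran from -0.39 to 0.32 with a lowest adjusted p of 0.229. Of 11 granin and vesicle genes, *Chgb*, encoding chromogranin B (0.68 ± 0.09 SE, limma adjusted p = 0.0481), and *Pam*, encoding the enzyme that amidates peptides (0.85 ± 0.19, adjusted p = 0.124), rose. Of 7 Gadd45 partners and demethylation genes, *Tet3*, encoding a 5-methylcytosine oxidase, rose (1.83 ± 0.33, limma adjusted p = 0.0848) and *Map3k4* fell (-0.92 ± 0.12, adjusted p = 0.0472). Over all libraries 2 genes of these 5 lists were called, *Acvr2a* (-0.62 ± 0.24 SE) and *Map3k4* (-0.67 ± 0.22), each with a limma adjusted p of 0.999. The share called was 7.14% of the activin list, 14.3% of the Gadd45 list and 0 of the other lists, against 2.53% of all genes.

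In Q808 against PTZ in the low set, which has 1 Q808 library, the 13 other secondary genes had a median log2 fold change of -1.37. The median was -0.76 for the 10 immediate early genes, with *Arc* at -3.40 and *Fosb* at -3.29, and 0.16 for all genes. *Plk2* (-1.37 ± 0.12, limma adjusted p = 0.0187), *Trib1* (-2.30 ± 0.27, adjusted p = 0.0382), *Nrn1* (-1.5 ± 0.23, adjusted p = 0.0764) and *Pim1* (-3.02 ± 0.52, adjusted p = 0.0987) were the secondary genes with the smallest p-values. Among the partner lists, *Smad7* (-1.12), *Fst* (-1.38), *Chgb* (-0.89), *Pam* (-0.79) and *Tet3* (-1.75) were lower in Q808-2 than in PTZ-1 and PTZ-2. *Acvr2a* (0.99), *Map3k4* (0.72), *Ntf3* (0.73), *Ntf4* (1.37) and *Inha* (0.64) were higher in the same comparison. With 1 Q808 library, these differences have no spread of their own on the Q808 side. Over all libraries, 4 of the 13 secondary genes were called lower and 0 higher, where 1.92% of all genes were called and 0.564% were called lower. They were *Plk2* (-1.14), *Rgs2* (-1.0), *Rheb* (-0.89) and *Syt4* (-0.91), with a limma adjusted p of 0.952 each. The other calls over all libraries were *Ntf4* (1.66) and *Pcsk1n* (1.5) higher and *Pam* (-0.90) lower. *Ntf4* was at 0.0954 to 0.124 FPKM in PTZ and 0.409 and 0.733 in Q808, and *Pcsk1n* was at 0 to 0.689 FPKM over the 8 libraries. *Ngfr*, named below, was at 0.118 and 0.0664 FPKM in Con.-1 and Con.-2 and 0.361 in Q808-2. Such values lie near the 0.1 added before the log, so changes of these genes rest on very low levels. In Q808 against Con. over all libraries 6 of the 77 listed genes were called, or 7.79%, against 3.46% of all genes. They were *Cdkn1a* (1.57), *Plat* (0.91), *Timp1* (1.29), *Fosb* (1.95) and *Pcsk1n* (1.63), all higher, and *Smad3* (-0.75), which was lower. Within the low set that comparison called *Ngfr* higher (1.28) beside *Cdkn1a* and the 5 immediate early genes.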

How the data were processed

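RNA of the hippocampus, dissected from both sides after the meninges were removed, was sequenced with 1 library per rat. The authors trimmed reads with Trimmomatic and deposited FPKM per gene from Cufflinks, and the submitters' processing notes also name HISAT2, Bowtie2, StringTie, SAMtools, HTSeq and DESeq, with no role or version. The genome build is not given in the sources used here. FPKM holds no read counts, so that counting error could not be computed. Groups were taken from the labels. Nothing but the numbers in the titles ties a Con. rat to a PTZ rat.

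Genes were found by NCBI GeneID, with symbols from the RefSeq table of GRCr8, which matched 20633 of 22601 genes. Genes whose FPKM averaged 0.1 or more across the 8 libraries, 15593 in number, were tested. The scale was log2(FPKM + 0.1), which understates the change of low genes, and the tool was limma 3.58.1 (R 4.3.3) with empirical Bayes and a trend, each comparison on its own 2 groups. In the low set the 3 groups were in 1 fit. A call needed p under 0.05 before adjustment and a fold change over 1.5, and Benjamini-Hochberg adjusted p-values stand beside it. The members, the gene lists and the split of the libraries were chosen with earlier results of these data known. Some listed genes are not reported here and were left out of the lists, which did not change the split. Named genes were the 10 members and up to 4 called genes per list and comparison, by smallest p. The deviations of same-numbered Con. and PTZ libraries from their groups correlated at 0.212, 0.299 and 0.422 over genes, and the block was therefore also fitted. Con.-2 and PTZ-1, which have different numbers, correlated at 0.322.

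Alternatives were pseudocounts, filters on low values, quantile normalization, no trend, a replicate block, all groups in 1 fit, the set as a covariate and leaving out each library. Only the 3 comparisons of groups over all libraries were run on simulated data, with independent noise of equal spread and no sets of libraries. The low-set, set, interaction and block fits were not simulated, so that run does not bear on them. Python 3.11.15, pandas 2.3.3, numpy 2.4.6 and matplotlib 3.10.9 were used.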

Additional observations from a re-analysis of the deposited data

Results flagged for a closer look

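The change from Con. to PTZ differed between the low set (2 libraries a group) and the high set (1 library a group) for 7 of the 10 genes, by an interaction term in limma that was added after the data were seen. The single libraries of the high set were assumed to vary like the others, and 19.2% of all genes were called by the same term, 5.77% with a larger change in the low set. The log2 fold change in the low set minus that in the high set was 3.73 for *Nptx2*, with an adjusted p of 0.0297 in limma. The adjusted p was above 0.05 in limma for the other 6, *Inhba* (5.73, adjusted p = 0.0711), *Gadd45b* (2.94, adjusted p = 0.0547), *Vgf* (2.71, adjusted p = 0.0637), *Homer1* (2.23, adjusted p = 0.0788), *Bdnf* (2.19, adjusted p = 0.154) and *Gadd45g* (1.54, adjusted p = 0.183). With 1 rat per group in the high set, the set and the rat cannot be told apart.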

How the results depend on the processing

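The results over all libraries depended on the settings, and those of the low set did so less. For PTZ against Con., 4 members were called, and 2 with a pseudocount of 1, a mean FPKM of at least 1, quantile normalization or no trend, 1 over all genes with any value above 0, 8 in the low set and 1 to 8 when 1 library was left out, with 8 without PTZ-3 and 1 without Con.-1, Con.-2, PTZ-1 or PTZ-2. For Q808 against PTZ, 2 were called, and 1 with quantile normalization, 0 over all genes with any value or with no trend, 7 in the low set, 5 with the set as a covariate, and 0 to 8 when 1 library was left out, with 8 without PTZ-3. For Q808 against Con., 1 was called, and 0 with all groups in 1 fit or in the low set, and 0 to 3 when 1 library was left out. The 77 listed genes had 8 calls in PTZ against Con., and 5 with quantile normalization, 28 in the low set and 3 to 18 without 1 library. In Q808 against PTZ they had 7, and 2 with any value, 4 with a mean FPKM of at least 1, 3 with no trend, 21 in the low set, 15 with the covariate and 1 to 20 without 1 library, and in Q808 against Con. 6, and 1 to 15 without 1 library. The replicate block gave 5 member calls in PTZ against Con. (4 without it), 9 in Q808 against PTZ and 2 in Q808 against Con. The listed genes had 23 and 19 calls with it in the last 2 comparisons. The share of all genes called is not given beside these alternative counts, so they describe the settings and not the members. In the Q808 comparisons, which have few libraries, the block left little from which to estimate the spread. Q808 and the other groups share only 2 numbers, whose pairs correlated at -0.295 and 0.322 (PTZ) and at -0.379 and 0.527 (Con.), so these blocks rest on numbers alone. In the low set the member counts were 7 to 10 (PTZ against Con.) and 6 to 9 (Q808 against PTZ), but adjusted p-values of the 6 members under 0.05 rose as far as 0.376 (*Homer1*) when a library was left out. For the 10 members, no called direction was reversed in any alternative run of the group comparisons. The directions of the 77 listed genes were not compared between runs. Other scaling moved the median of all genes in the low set from 0.16 to 0.01 (Q808 against PTZ) and from -0.11 to -0.04 (PTZ against Con.) with quantile normalization, and member changes are as deposited. The causes of these shifts were not tested. The depth of each library is not in these values, so what it limits could not be assessed.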
